A study of Homo sapiens with 9 samples.

Results

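The aryl hydrocarbon receptor pathway was followed through 7 genes in H295R, an established human cell line from a carcinoma of the adrenal cortex that produces steroid hormones. The genes were TIPARP, AHR, AHRR, ARNT, CYP1A1, CYP1A2 and CYP1B1, chosen by symbol out of 19775 genes compared. All single-symbol probe sets of these genes were used, 17 in all, and the probe set with the highest mean over the 9 arrays gave each gene's main value. Cells had been treated for 3 h with 100 nM torcetrapib (labelled CP-529414), which inhibits the lipid-carrying plasma protein CETP, with 100 nM angiotensin II, the peptide hormone that drives aldosterone secretion, or with DMSO as the vehicle. Each group held 3 arrays of total RNA from this 1 cell line, and no genetic change is named in the labels. The study asked whether CETP inhibitors switch on renin-angiotensin-aldosterone signalling in adrenal cells and whether their transcriptional response bears on blood pressure.

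The aryl hydrocarbon receptor (AHR) is a ligand-activated transcription factor of the bHLH-PAS family that rests in the cytoplasm with chaperones. Once bound by dioxins, polycyclic hydrocarbons or tryptophan metabolites it enters the nucleus, pairs with ARNT and binds the xenobiotic response element, whose core is GCGTG. Its classical targets are the cytochrome P450 genes CYP1A1, CYP1A2 and CYP1B1, which oxidise aromatic compounds and steroids, and a pair of brakes on the receptor: AHRR, a repressor that competes for ARNT, and TIPARP (PARP7), an enzyme that attaches single ADP-ribose units to proteins including AHR. TIPARP is also known as an early gene that other stimuli can induce without AHR ligands.

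The bases before the starts of TIPARP, CYP1A1 and CYP1A2 are shown because these known targets of the same receptor gave different values here. The sequences are from RefSeq on GRCh38.p14, 250 bases up to the base before the annotated start, written 5′ to 3′ along the gene. Capitals mark GCGTG or, on the other strand, its complement CACGC.
TIPARP (plus strand, chr3:156674340-156674589): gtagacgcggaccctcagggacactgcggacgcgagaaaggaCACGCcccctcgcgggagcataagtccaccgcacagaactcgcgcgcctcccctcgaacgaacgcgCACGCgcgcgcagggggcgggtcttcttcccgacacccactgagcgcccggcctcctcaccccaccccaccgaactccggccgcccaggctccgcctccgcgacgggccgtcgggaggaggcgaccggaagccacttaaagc
CYP1A1 (minus strand, chr15:74725529-74725778): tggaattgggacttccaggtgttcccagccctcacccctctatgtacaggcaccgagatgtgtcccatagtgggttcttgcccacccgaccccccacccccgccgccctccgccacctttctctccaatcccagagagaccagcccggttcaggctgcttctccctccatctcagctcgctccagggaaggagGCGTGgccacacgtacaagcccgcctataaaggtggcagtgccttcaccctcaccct
CYP1A2 (plus strand, chr15:74748595-74748844): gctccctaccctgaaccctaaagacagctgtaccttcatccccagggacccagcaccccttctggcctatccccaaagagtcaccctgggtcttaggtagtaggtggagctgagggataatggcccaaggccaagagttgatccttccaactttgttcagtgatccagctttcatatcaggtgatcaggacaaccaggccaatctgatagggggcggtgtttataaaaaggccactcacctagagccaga

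The printed window, before the first of 3 annotated TIPARP starts, held 2 copies of GCGTG on the other strand, the first base lying 208 and 142 bases before the start. The windows of the other 2 TIPARP starts held 0 copies, and those of the 2 starts of AHRR held 1 and 2 copies. The CYP1A1 window held 1 copy, 57 bases before the start, and the CYP1A2 window 0 copies. GCGTG, searched on both strands, was present in 32.2% of all 35116 such windows, so its presence sets no gene apart. CYP1A1 and CYP1A2 also held TATAAA close to the start, a motif in 10.7% of windows, which the TIPARP window lacked. The full cAMP response element TGACGTCA, present in 1.65% of windows, was in none of the windows of the 6 genes with an entry, which were all but CYP1B1. Its first letters TGACG, which the full element contains, were in 21.2% of windows, among them that of AHR and a start of TIPARP further downstream. These matches describe letters in a window and say nothing of binding.

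The arrays were alike in scale, with medians between 5.54 and 5.60 on the log2 scale. All 7 measured markers of adrenocortical cells lay above 4.87, the 25th percentile of gene means, and their mean over an array ran from 9.77 to 9.86 with torcetrapib, 9.87 to 9.98 with angiotensin II and 9.74 to 9.85 with DMSO. Of these markers 3 of 7 rose with angiotensin II (3.36% of all genes) and 3 of 7 were lower with torcetrapib than with angiotensin II (6.68% of all genes). With torcetrapib against DMSO 0 of 7 were called by limma (1.16% of all genes), where 1 passed an unadjusted p of 0.05 (13.3% of all genes). The 6 markers of fibroblast, endothelial and immune cells averaged 5.19 to 5.24 with torcetrapib and 5.19 to 5.32 with DMSO. With angiotensin II they averaged 5.25 to 5.50, and 2 of the 6 lay below 4.87. The 5 markers of the adrenal medulla averaged 6.14 to 6.29 with torcetrapib and 6.21 to 6.29 with DMSO. With angiotensin II they averaged 6.18 to 6.30, and 1 of the 5 lay below 4.87. The medulla marker CHGB was brighter than 70.9% of all genes. Lying above 4.87 is therefore not specific to the adrenocortical markers. A sign of RNA quality, the 5′ minus the 3′ signal of the ACTB and GAPDH control probe sets, was -0.24 ± 0.03 (SD, n = 3) with torcetrapib, -0.62 ± 0.02 with angiotensin II and -0.50 ± 0.22 with DMSO. DMSO replicate 2, at -0.2758, lay next to the lowest torcetrapib array at -0.2751, apart from DMSO replicates 1 and 3 at -0.7189 and -0.5044. The torcetrapib arrays lay above all others (exact two-sided permutation test, p = 0.1 against each group, the smallest that 3 against 3 arrays allow). Whether the 3 arrays of a group stem from separate cultures is not in the labels, so the spread behind each p-value may be technical.

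TIPARP was the 1 gene of the 7 called with both treatments. Its log2 values were 9.52, 9.64 and 9.60 on the torcetrapib arrays, 10.70, 10.70 and 10.73 on the angiotensin II arrays and 8.69, 8.69 and 8.85 on the DMSO arrays. The 3 groups did not overlap, with angiotensin II highest and torcetrapib between it and DMSO. With angiotensin II it rose 3.91-fold (log2 change 1.97 ± 0.06 SE, 95% interval 1.84 to 2.09, limma adjusted p = 1.46e-12), the rise of rank 35 among 19775 genes. With torcetrapib it rose 1.79-fold (0.84 ± 0.06, interval 0.72 to 0.96, limma adjusted p = 4.03e-07), the rise of rank 27. Both comparisons use the same DMSO arrays. The treatments were also compared with each other at the matched dose and time, and TIPARP was 2.18-fold lower with torcetrapib than with angiotensin II (log2 change -1.12 ± 0.06, interval -1.245 to -1.003, limma adjusted p = 2.25e-09).

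Adjusted for the 5′ to 3′ index, the TIPARP changes were 1.97 for angiotensin II, 0.84 for torcetrapib and -1.13 between the treatments, and all remained past the threshold. The index varied little within torcetrapib and angiotensin II (SD 0.03 and 0.02) and more within DMSO (0.22). The slope of such a fit thus rests mainly on the DMSO arrays. For any gene it cannot separate RNA quality from treatment between torcetrapib and the other groups. TIPARP is represented by 1 probe set, 212665_at, so a second reading on these arrays was not used here. A change in a bulk culture can come from more RNA per cell or from more cells that carry it, and these cannot be told apart.

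**Figure D1:**
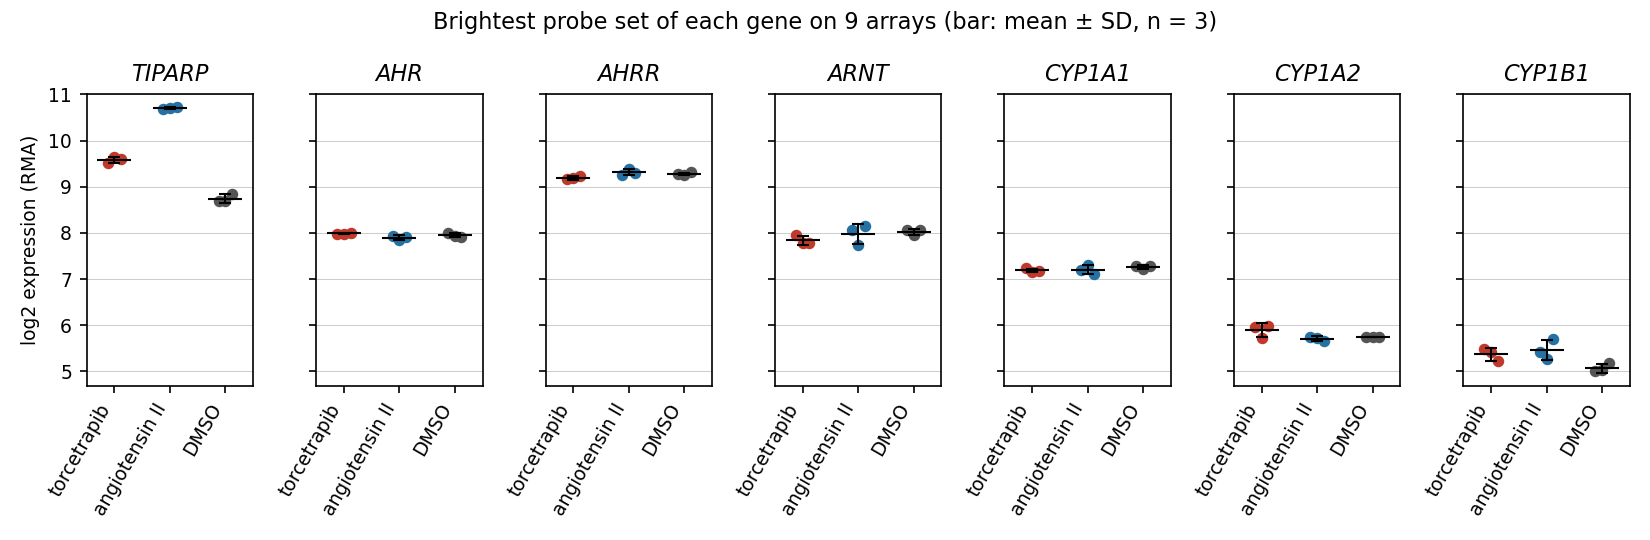
Log2 expression (RMA, y axis) of the brightest probe set of each of the 7 genes on the 3 torcetrapib, 3 angiotensin II and 3 DMSO arrays, with bars for the mean ± SD. TIPARP separates into 3 levels with means of 9.59, 10.71 and 8.75, while the arrays of AHR, ARNT, CYP1A1 and CYP1A2 overlap those of DMSO for both treatments.

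Of the 7 genes 1 passed the test with angiotensin II, against 6.12% of all genes, and it was higher, as 3.36% of all genes were. With torcetrapib 1 of 7 passed, against 1.16% of all genes, and again it was higher (0.592% of all genes). Between torcetrapib and angiotensin II 1 of 7 passed, against 11.3% of all genes, and it was lower with torcetrapib (6.68% of all genes). In each comparison that gene was TIPARP. The 7 genes were chosen with earlier results of these data known, so these shares do not test the set. At an unadjusted p of 0.05, 2 of 7 passed in each comparison, against 16.5%, 13.3% and 24.8% of all genes in the same order. The median log2 change of the 7 genes was -0.03 with angiotensin II, 0.04 with torcetrapib and -0.09 between the treatments, beside 0.01, -0.03 and -0.04 over all genes. Of the 17 probe sets 1 was called with angiotensin II, 1 with torcetrapib and 3 between the treatments, against 3.63%, 1.11% and 11.6% of all 41091 probe sets with 1 symbol.

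The receptor itself did not pass the test in any comparison. AHR read 7.979, 7.982 and 8.003 with torcetrapib, 7.943, 7.838 and 7.913 with angiotensin II and 7.998, 7.938 and 7.907 with DMSO. Torcetrapib and angiotensin II arrays each overlapped the DMSO arrays. Its log2 change was -0.05 ± 0.07 with angiotensin II (95% interval -0.19 to 0.09) and 0.04 ± 0.07 with torcetrapib (-0.10 to 0.18). Between the treatments the change was 0.09 ± 0.07 (interval -0.05 to 0.23, limma adjusted p = 0.444). The torcetrapib arrays lay above the angiotensin II arrays, a separation of groups that 28.6% of all genes showed in one direction or the other.

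AHRR, the repressor, read 9.16, 9.18 and 9.23 with torcetrapib, 9.26, 9.39 and 9.31 with angiotensin II and 9.27, 9.26 and 9.31 with DMSO. The torcetrapib arrays lay below the other 6. Of all genes 16.5% did not overlap between torcetrapib and DMSO, and 28.6% between torcetrapib and angiotensin II. The log2 change of AHRR was 0.04 ± 0.05 with angiotensin II (interval -0.08 to 0.15), -0.09 ± 0.05 with torcetrapib (-0.20 to 0.03, limma adjusted p = 0.543) and -0.13 ± 0.05 between the treatments (-0.24 to -0.01, limma adjusted p = 0.168). None of these passed.

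ARNT, the obligate partner, was read by 7 probe sets that did not move together. The brightest, 218221_at, read 7.95, 7.78 and 7.78 with torcetrapib, 8.05, 7.74 and 8.14 with angiotensin II and 8.05, 7.95 and 8.06 with DMSO. Angiotensin II replicate 2 lay below the other 8 arrays, and the groups overlapped. The changes of this probe set were -0.04 ± 0.10 with angiotensin II and -0.18 ± 0.10 with torcetrapib, and neither passed (limma adjusted p = 0.908 and 0.445).

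Between torcetrapib and angiotensin II 2 dimmer ARNT probe sets were higher with torcetrapib. In the fit over all probe sets, 218222_x_at had a log2 change of 0.38 ± 0.11 (limma adjusted p = 0.0401) and 210828_s_at one of 0.71 ± 0.21 (limma adjusted p = 0.0479). The first read 7.21, 7.36 and 7.32 with torcetrapib against 7.16, 6.77 and 6.83 with angiotensin II. The second read 4.98, 5.61 and 5.38 with torcetrapib against 4.40, 4.74 and 4.69 with angiotensin II. The brightest probe set pointed the other way, with -0.14 ± 0.10, and the mean of the 7 probe sets gave 0.14 (limma adjusted p = 0.232). With array weights the brightest probe set was itself called lower with torcetrapib (-0.17, limma adjusted p = 0.0455), so no direction is stated for the gene.

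Both calls were weak, and the index of RNA quality differed between the same groups. With the index in the model, a fit chosen after the data were seen, 218222_x_at had a log2 change of 0.22 (limma adjusted p = 0.848) and 210828_s_at one of -0.12 (0.961). That fit cannot tell RNA quality from treatment here, because the index nearly follows the group. The call of 218222_x_at was kept without angiotensin II replicate 1 (adjusted p = 0.0137) and ended without angiotensin II replicates 2 and 3 or torcetrapib replicates 1, 2 and 3 (0.137, 0.109, 0.0731, 0.133 and 0.118). That of 210828_s_at was kept without torcetrapib replicate 1 (0.0389) and ended without angiotensin II replicates 1, 2 and 3 or torcetrapib replicates 2 and 3 (0.169, 0.0837, 0.0823, 0.175 and 0.139).

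The classical target CYP1A1, the enzyme most often read as a measure of receptor activity, did not pass the test. It read 7.23, 7.16 and 7.17 with torcetrapib, 7.20, 7.30 and 7.11 with angiotensin II and 7.28, 7.22 and 7.29 with DMSO, and the groups overlapped. The change was -0.06 ± 0.08 with angiotensin II (95% interval -0.22 to 0.11) and -0.07 ± 0.08 with torcetrapib (-0.24 to 0.09). Both intervals end below the lower bounds of the TIPARP intervals in the same comparisons.

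CYP1A2, known mainly as a liver enzyme, read 5.97, 5.71 and 5.99 with torcetrapib, 5.75, 5.73 and 5.66 with angiotensin II and 5.75 on each DMSO array. The changes were -0.03 ± 0.10 with angiotensin II (interval -0.24 to 0.17) and 0.15 ± 0.10 with torcetrapib (-0.06 to 0.35, limma adjusted p = 0.572). Its other probe set, 207609_s_at, gave 5.60 on all 3 angiotensin II arrays. Such equal values occur throughout the table: 52.1% of probe sets held the same value on at least 2 arrays and 2.10% on all 3 arrays of a group. A group with equal values adds no spread of its own to the fit.

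CYP1B1, the steroid- and hydrocarbon-oxidising member known outside the liver, came closest to the threshold after TIPARP in both comparisons with DMSO. It read 5.48, 5.43 and 5.21 with torcetrapib, 5.42, 5.28 and 5.71 with angiotensin II and 5.01, 5.02 and 5.18 with DMSO. All 6 treated arrays lay above the 3 DMSO arrays, torcetrapib replicate 3 only just. The change was 0.40 ± 0.12 with angiotensin II (95% interval 0.15 to 0.65, limma adjusted p = 0.0627) and 0.30 ± 0.12 with torcetrapib (0.05 to 0.56, limma adjusted p = 0.266), and neither passed. Groups that do not overlap are common here, in 17.6% of all genes with angiotensin II and 16.5% with torcetrapib.

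The CYP1B1 value depended on the probe set and on single arrays. The other 3 probe sets, 202435_s_at, 202437_s_at and 202434_s_at, had log2 changes of 0.20 ± 0.11, 0.13 ± 0.21 and 0.07 ± 0.12 with angiotensin II and of -0.05 ± 0.11, 0.13 ± 0.21 and 0.04 ± 0.12 with torcetrapib. The angiotensin II change passed without angiotensin II replicate 2 (0.49, limma adjusted p = 0.0282), with dim genes left out (0.40, 0.0469) and with array weights (0.37, 0.00836), while with the index in the model it did not (0.40, 0.115). Its alternatives ran from 0.20 to 0.49, with adjusted p from 0.00836 to 0.286. The torcetrapib change passed with array weights (0.36, limma adjusted p = 0.0399), and it was 0.29 with the index (adjusted p = 0.9998) and 0.11 with the mean of the probe sets (0.681), its alternatives running from 0.11 to 0.38. Between torcetrapib and angiotensin II the log2 change was -0.02 ± 0.08 in CYP1A1, 0.18 ± 0.10 in CYP1A2 and -0.09 ± 0.12 in CYP1B1, and none passed (limma adjusted p = 0.916, 0.265 and 0.681).

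**Figure D2:**
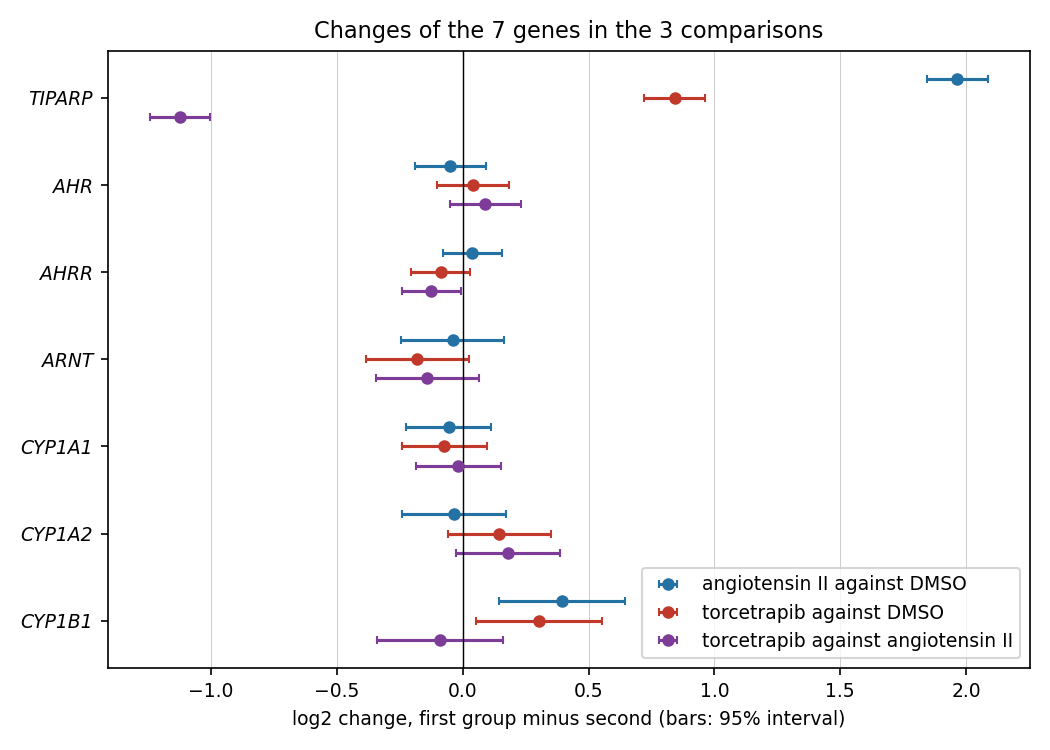
Log2 change (x axis, first group minus second, bars for 95% intervals) of the 7 genes with angiotensin II, with torcetrapib and between the treatments. TIPARP lies at 1.97, 0.84 and -1.12, and the CYP1B1 intervals of both treatments lie above 0 while its adjusted p-values do not pass.

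**Figure D3:**
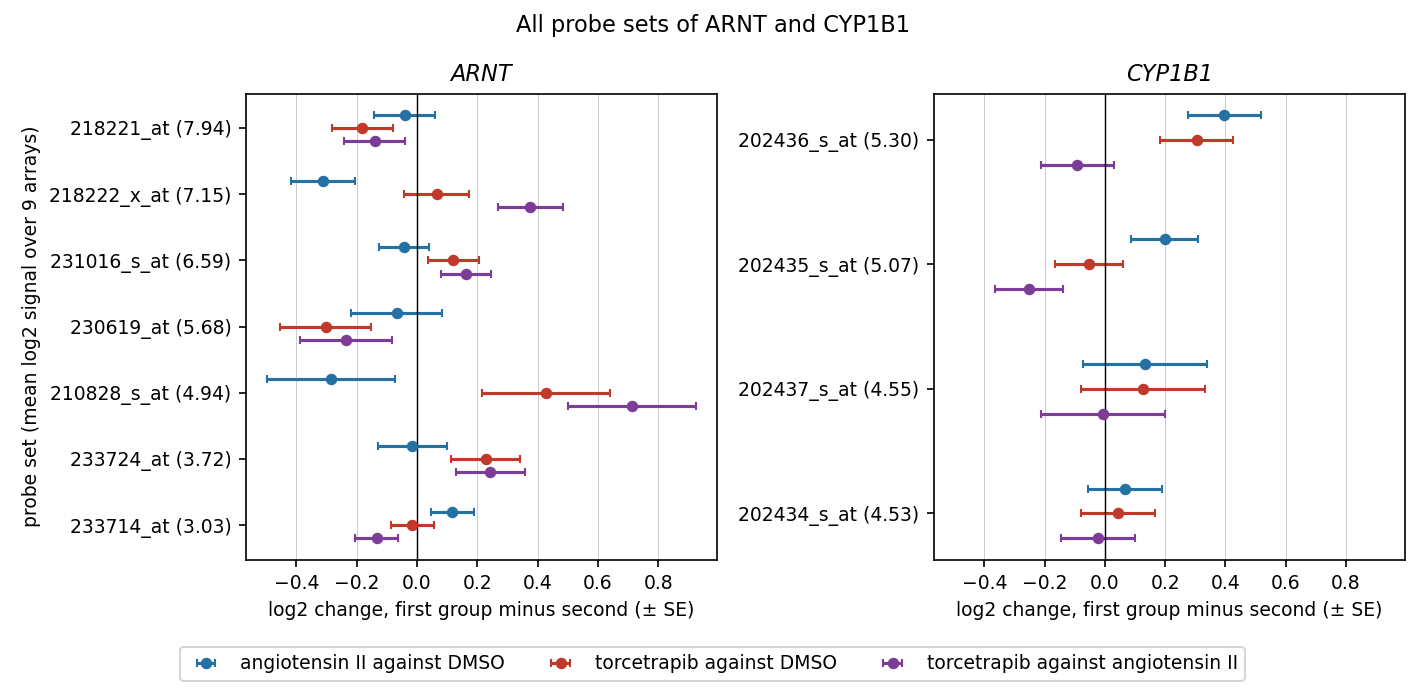
Log2 change (x axis, first group minus second, bars for SE) of the 7 ARNT and 4 CYP1B1 probe sets, ordered by mean signal, which stands beside each name. The ARNT probe sets scatter on both sides of 0 between the treatments, from -0.24 to 0.71, and the 4 CYP1B1 probe sets lie between 0.07 and 0.40 with angiotensin II.

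The other genes of the pathway, 77 measured in 8 lists, held 4 calls with angiotensin II, 2 with torcetrapib and 11 between the treatments. These lists too were chosen with earlier results of these data known. With angiotensin II 2 rose and 2 fell (5.19% called, against 6.12% of all genes, of which 3.36% rose and 2.76% fell), with a median log2 change of 0.02 beside 0.01 over all genes. With torcetrapib 1 rose and 1 fell (2.60% called, against 1.16% of all genes, 0.592% higher and 0.566% lower), with a median of -0.04 beside -0.03. Between torcetrapib and angiotensin II 3 were higher and 8 lower (14.3% called, against 11.3% of all genes, 4.61% higher and 6.68% lower), with a median of -0.06 beside -0.04.

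Of 16 measured receptor targets beyond the CYP1 genes, 0 passed limma with angiotensin II and 0 with torcetrapib (6.12% and 1.16% of all genes). At an unadjusted p of 0.05, 3 of them passed with each treatment (16.5% and 13.3% of all genes). The median change was 0.06 with angiotensin II and -0.06 with torcetrapib. PTGS2, SCIN, UGT1A6, ALDH1A3, UGT1A1 and VAV3 were brighter than only 2.81%, 10.6%, 14.4%, 15.3%, 16.9% and 19.0% of all genes. The rest were brighter than 26.0% to 97.8% of all genes. For the dim targets the lack of a call does not show that they failed to respond. SLC7A5, a transporter of tryptophan and its metabolite kynurenine, had the smallest p with angiotensin II, with a change of 0.27 ± 0.08 (limma adjusted p = 0.0627). NQO1, a quinone reductase shared with the NRF2 pathway, had it with torcetrapib, with 0.17 ± 0.05 (limma adjusted p = 0.0926).

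The 5 measured genes of the list of receptor complex partners and chaperones did not pass in any comparison by limma (6.12%, 1.16% and 11.3% of all genes). At an unadjusted p of 0.05, 0, 1 and 1 of them passed (16.5%, 13.3% and 24.8% of all genes). The order is angiotensin II, torcetrapib and between the treatments. SRC, a kinase held in the receptor's cytoplasmic complex, had the smallest p with both treatments, with changes of -0.22 ± 0.11 for angiotensin II and -0.26 ± 0.11 for torcetrapib (limma adjusted p = 0.311 and 0.289). Between the treatments it was the co-chaperone PTGES3, with 0.06 ± 0.03 (limma adjusted p = 0.199).

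Among 13 other bHLH-PAS factors, the family of AHR and ARNT, 1 rose with angiotensin II by limma (3.36% of all genes). There 4 passed an unadjusted p of 0.05 (16.5% of all genes). With torcetrapib 0 changed by limma (1.16% of all genes), and 1 passed an unadjusted p of 0.05 (13.3% of all genes). The rise with angiotensin II was of NPAS4, an activity-dependent factor that pairs with ARNT or its relative ARNT2. NPAS4 read 4.98, 5.45 and 5.25 with torcetrapib, 10.36, 10.13 and 10.56 with angiotensin II and 5.16, 5.45 and 4.99 with DMSO. Its log2 change was 5.15 ± 0.14 with angiotensin II, 0.03 ± 0.14 with torcetrapib and -5.12 ± 0.14 between the treatments, and the torcetrapib arrays overlapped those of DMSO. These are values of its brightest probe set, and the size depended on the processing. The NPAS4 alternatives ran from 2.81 to 5.28 with angiotensin II (5.04 to 5.28 with single arrays left out) and from -5.45 to -2.79 between the treatments. All kept the call. SIM2 had the smallest p of the list with torcetrapib, with -0.22 ± 0.10 (limma adjusted p = 0.352).

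Among 8 measured coactivators and corepressors KLF6 rose and NRIP1 fell with each treatment. Over all genes 3.36% rose and 2.76% fell with angiotensin II, and 0.592% rose and 0.566% fell with torcetrapib. At an unadjusted p of 0.05, 2 of 8 passed with angiotensin II and 5 with torcetrapib (16.5% and 13.3% of all genes). KLF6, a zinc finger factor that can bind DNA with AHR, read 10.53, 10.62 and 10.55 with torcetrapib, 11.13, 11.10 and 10.96 with angiotensin II and 10.13, 9.92 and 10.12 with DMSO. Its groups kept the order seen for TIPARP, with changes of 1.01 ± 0.06 for angiotensin II and 0.51 ± 0.06 for torcetrapib. NRIP1 (RIP140), a cofactor of nuclear receptors and of AHR, had changes of -0.41 ± 0.05 and -0.32 ± 0.05 (limma adjusted p = 0.00387 with torcetrapib). The torcetrapib call of NRIP1 ended with the index in the model and without a variance trend (adjusted p = 0.0921 and 0.0716).

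Of 16 other PARP family members 0 passed by limma with angiotensin II and 0 with torcetrapib (6.12% and 1.16% of all genes). At an unadjusted p of 0.05, 4 and 2 of them passed (16.5% and 13.3% of all genes). TNKS, a tankyrase, had the smallest p with angiotensin II, with -0.28 ± 0.08 (limma adjusted p = 0.0673), and PARP1, the DNA damage sensor, with torcetrapib, with -0.16 ± 0.04 (limma adjusted p = 0.0649). Of 5 measured hydrolases that remove ADP-ribose, 1 fell with angiotensin II (2.76% of all genes). It was OARD1, by 0.31 on the log2 scale (SE 0.07, limma adjusted p = 0.0164). OARD1, which removes ADP-ribose linked to acidic residues, read 8.09, 8.04 and 8.12 with angiotensin II, against 8.32, 8.36 and 8.48 with DMSO. That call was lost when DMSO replicate 3, angiotensin II replicate 1 or angiotensin II replicate 2 was left out (adjusted p = 0.0833, 0.0586 and 0.0552) and with the mean of its probe sets (0.0506). Of the 5 hydrolases 2 passed an unadjusted p of 0.05 with angiotensin II (16.5% of all genes). With torcetrapib 0 of 5 passed by limma (1.16% of all genes) and 0 at an unadjusted p of 0.05 (13.3%). The smallest p of the hydrolases with torcetrapib was that of MACROD1, with -0.09 ± 0.07 (limma adjusted p = 0.666).

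The 10 enzymes that turn tryptophan into receptor ligands did not pass in any comparison by limma. Of all genes 6.12% passed with angiotensin II, 1.16% with torcetrapib and 11.3% between the treatments. At an unadjusted p of 0.05, 0 of these enzymes passed (16.5%, 13.3% and 24.8% of all genes in the same order). TDO2, which opens the tryptophan ring, had a log2 change of -0.28 ± 0.15 with angiotensin II and of 0.29 ± 0.15 between the treatments, and KYAT3, which makes kynurenic acid, one of -0.12 ± 0.06 with torcetrapib. Of 4 measured electron donors and partner enzymes of the CYP1 proteins 0 passed with either treatment by limma (6.12% and 1.16% of all genes). At an unadjusted p of 0.05, 0 passed with angiotensin II and 2 with torcetrapib (16.5% and 13.3% of all genes). POR, which hands electrons to all microsomal P450 enzymes, had log2 changes of 0.09 ± 0.05 with angiotensin II and -0.15 ± 0.05 with torcetrapib (limma adjusted p = 0.410 and 0.185).

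Between torcetrapib and angiotensin II the 11 genes called in these lists were NPAS4, KLF6, SLC7A5, POR, HIF1A, PARP1, PARP6 and VAV3, lower with torcetrapib, and OARD1, NQO1 and, by its brightest probe set, BMAL2, higher. SLC7A5 read 8.14, 8.02 and 7.99 with torcetrapib, against 8.46, 8.47 and 8.58 with angiotensin II (log2 change -0.46 ± 0.08, limma adjusted p = 0.00178). POR read 10.67, 10.67 and 10.63 with torcetrapib, against 10.86, 10.90 and 10.93 with angiotensin II (-0.24 ± 0.05, limma adjusted p = 0.00508). Changes of KLF6 and OARD1 were -0.50 ± 0.06 and 0.30 ± 0.07. HIF1A, the oxygen-regulated partner of ARNT, changed by -0.13 ± 0.03, PARP1 by -0.15 ± 0.04, the mono-ADP-ribosyltransferase PARP6 by -0.20 ± 0.05, the exchange factor VAV3 by -0.33 ± 0.10, NQO1 by 0.15 ± 0.05 and the clock factor BMAL2 by 0.64 ± 0.16.

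Of these 11 calls 4 held in every fit that left out 1 array, those of NPAS4, KLF6, SLC7A5 and POR, and 1, that of NPAS4, held with the index of RNA quality in the model. The fit with the index cannot tell RNA quality from treatment between these groups, so it does not decide on the lost calls. The OARD1 call ended without torcetrapib replicate 2 (adjusted p = 0.0813). The calls of BMAL2, PARP1, HIF1A, PARP6 and VAV3 were kept in 3, 3, 2, 2 and 1 of 6 fits that left out 1 array and that of NQO1 in 0, with highest adjusted p-values of 0.0881, 0.0728, 0.114, 0.102, 0.174 and 0.141. The arrays whose removal ended a call were angiotensin II replicates 1 and 2 and torcetrapib replicate 2 for BMAL2, and angiotensin II replicate 1 and torcetrapib replicates 1 and 3 for PARP1. They were replicates 1 and 2 of both groups for HIF1A and PARP6, every array but angiotensin II replicate 3 for VAV3, and each of the 6 for NQO1. The sign of BMAL2 was reversed by its probe set outside the _x_at and _s_at types (-0.19) and with the index (-0.10), so no direction is stated for it.

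**Figure D4:**
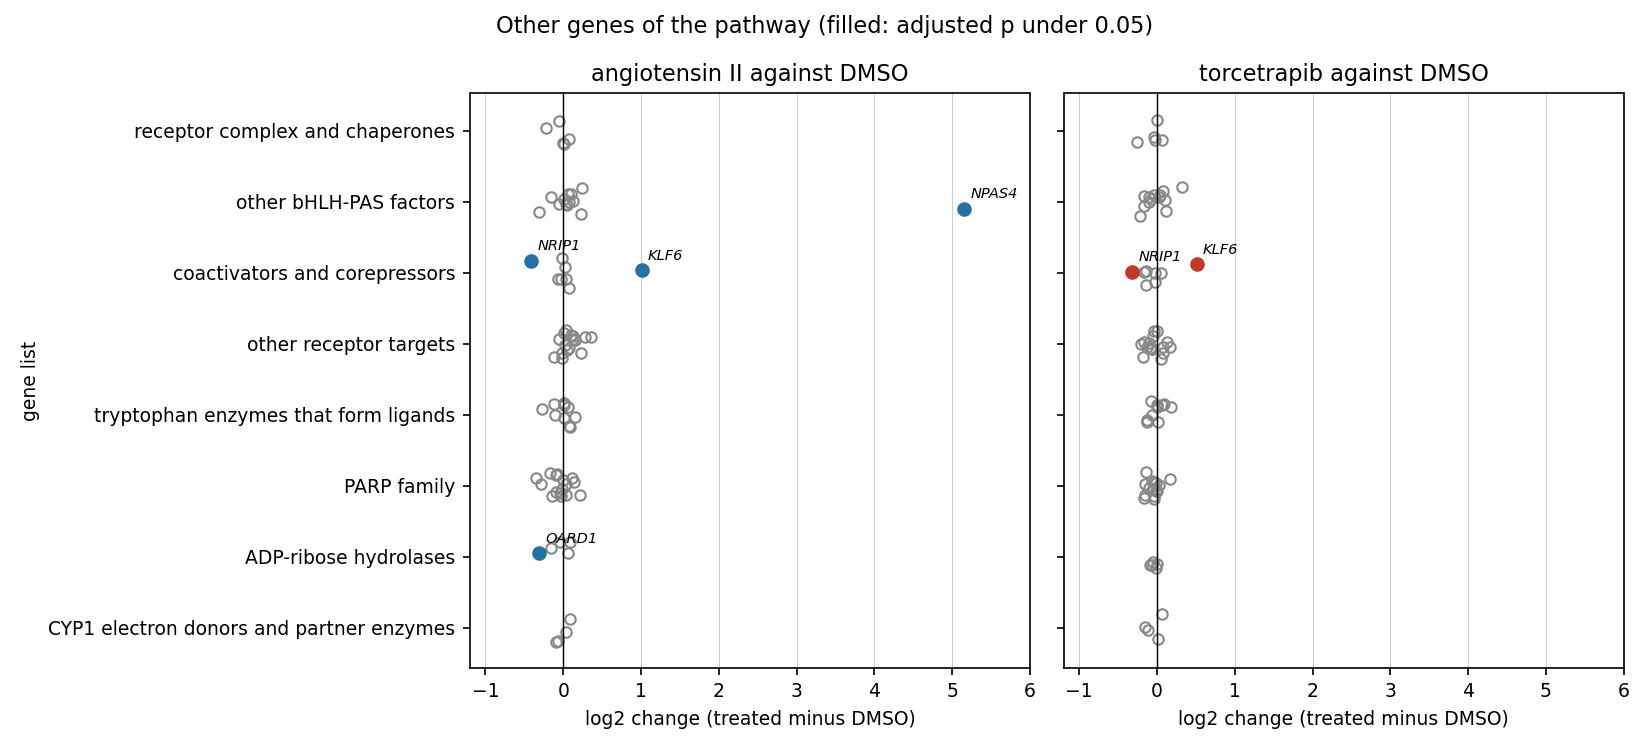
Log2 change (x axis, treated minus DMSO) of 77 other genes of the pathway in 8 lists (rows), with angiotensin II on the left and torcetrapib on the right, filled where the adjusted p passed. NPAS4 stands alone at 5.15 on the left, and KLF6 and NRIP1 are filled in both panels.

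The genes with the pattern closest to TIPARP were sought among all 19775 genes, and those named below were not among the pathway genes followed here. The pathway genes were a small share of all genes compared, so this outcome was likely in advance and says little about the pathway. The named genes were picked for their likeness to TIPARP, so their similar changes are no separate result. Likeness was the root mean square difference over the 9 arrays, each gene taken as its log2 deviation from its own DMSO mean, and the median over genes was 1.24. SOCS1, an inhibitor of cytokine receptor signalling, was closest at 0.12, with changes of 1.96 ± 0.08 with angiotensin II and 0.72 ± 0.08 with torcetrapib. LINC00473, a long noncoding RNA known to respond to cAMP, followed at 0.14 (1.77 and 0.75), then SPRY2, a feedback inhibitor of receptor tyrosine kinases, at 0.16 (1.92 and 0.60). GADD45A, a growth arrest gene, lay at 0.17 (1.89 and 0.60), PDP1, the phosphatase that activates pyruvate dehydrogenase, at 0.21 (1.68 and 0.65) and ANKRD37, an ankyrin repeat gene induced in hypoxia, at 0.24 (1.68 and 0.79).

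Differences between these genes and TIPARP were not tested. The likeness is that of each gene's brightest probe set. With angiotensin II the alternatives ran from 0.92 to 2.03 for SOCS1 and from 0.81 to 1.79 for ANKRD37, and all kept the call. The torcetrapib call of ANKRD37 ended without torcetrapib replicate 1, 2 or 3 (adjusted p = 0.0655, 0.0848 and 0.0931), without the intensity trend (0.110) and with the mean of its probe sets (0.345), and that of SOCS1 with the mean of its probe sets (0.0771). Of the 4 genes with a RefSeq window, SOCS1, LINC00473, SPRY2 and ANKRD37, 0 held GCGTG (32.2% of all windows). TGACG (21.2% of all windows) was in the windows of LINC00473 and ANKRD37 and in 1 of the 3 of SPRY2.

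**Figure D5:**
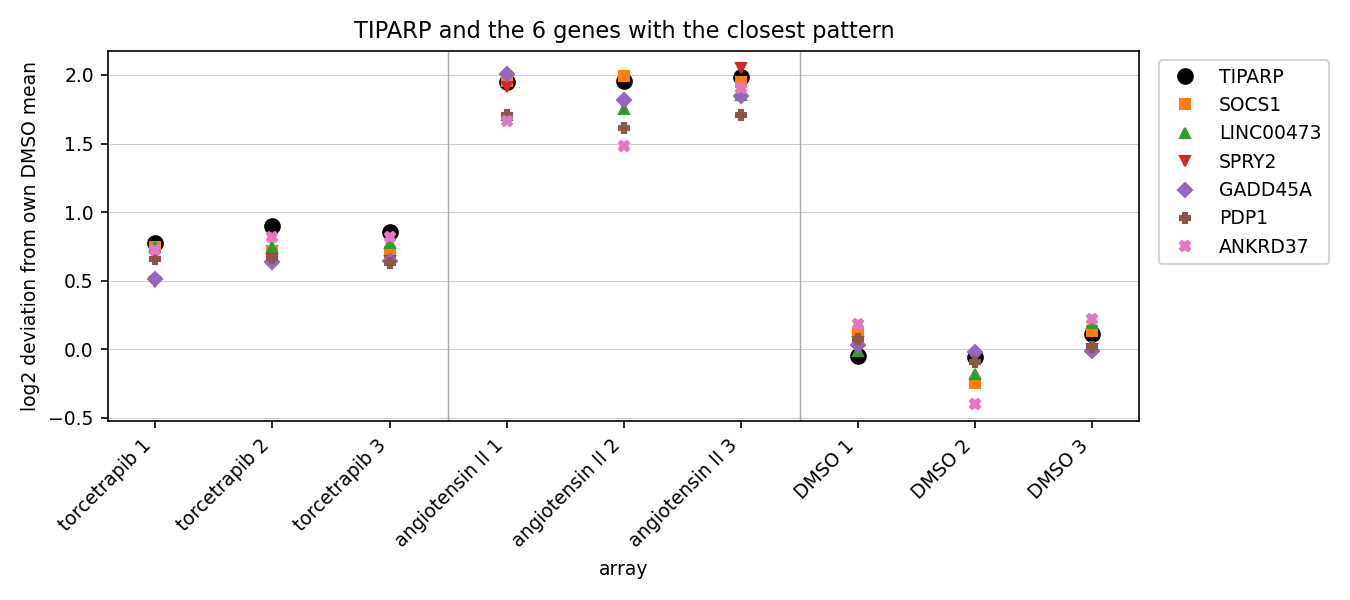
Log2 deviation from each gene's own DMSO mean (y axis) of TIPARP and the 6 genes with the closest pattern, on each torcetrapib, angiotensin II and DMSO array. TIPARP lies between 0.77 and 0.90 on the torcetrapib arrays, between 1.95 and 1.99 on the angiotensin II arrays and between -0.06 and 0.11 on the DMSO arrays.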

How the data were processed

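H295R RNA was purified in a 96-well format and biotin-labelled for Affymetrix arrays, per the labels. The authors deposited log2 values for each probe set from robust multi-array averaging (RMA), as the submitters' processing notes name it. Which software or chip definition made them is not given in the sources used here. The design text places angiotensin II among CETP inhibitors, and the sample labels were followed instead. The labels name no batch.

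Of 54675 probe sets 62 were controls, and 41091 carried 1 symbol, 1801 several and 11721 none in the platform annotation. The gene table matched 19735 of 19775 symbols. Tests came from limma 3.58.1 (R 4.3.3): 1 model of 3 group means on 9 arrays (6 residual degrees of freedom), eBayes with an intensity trend, two-sided p and Benjamini-Hochberg adjustment across all genes, called under 0.05. Intervals are at 95%, without adjustment. The ± of a change is its standard error and the ± of a level its standard deviation. The number of arrays limits the precision, and scanner signals were not used here.

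The members and lists were chosen with earlier results of these data known. Of 85 listed pathway genes 77 were measured, and the other 8 were not analysed here. Named from each list were the called genes, at most 4 by size, or else the gene of smallest p, and 6 genes by likeness to TIPARP. The fit was tested on simulated data. Alternatives were eBayes without trend or robust, dim genes (mean under 4.87) removed, arrays recentred, quantile normalisation repeated, probe sets averaged, _x_at and _s_at types dropped, array weights, 2 groups alone, the 5′ to 3′ index as covariate, and single arrays left out.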

Additional observations from a re-analysis of the deposited data

How the results depend on the processing

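TIPARP kept its direction and its call in all 16 alternatives of each comparison, with log2 changes from 1.94 to 2.02 for angiotensin II, 0.81 to 0.90 for torcetrapib and -1.15 to -1.09 between the treatments. Some of these could not move a log2 change, only its adjusted p. For every gene these were no trend, robust eBayes, the dim filter and 2 groups alone. For TIPARP, AHR, AHRR and CYP1A1, with 1 probe set each, they were also averaging probe sets and dropping _x_at and _s_at types. Of 330 alternative values of the 7 genes 325 kept their side of the threshold, 0 lost a call and 5 gained one. The members called with angiotensin II were then 2 in place of 1 with dim genes filtered out and with array weights, and between 1 and 2 with single arrays left out. With array weights, which put angiotensin II replicate 1 at 6.15 and replicates 2 and 3 at 0.448 and 0.480, they were also 2 with torcetrapib, CYP1B1 being added, and 2 between the treatments, ARNT being added. Among other named genes 63 of 1176 values lost a call, 19 gained one and, counting only genes called at first, 2 turned in sign, both of BMAL2 between the treatments (-0.19 without _x_at and _s_at probe sets, -0.10 with the index). Small changes that were not called also crossed 0 in some alternatives and have no stable direction. ARNT probe set 210828_s_at turned to -0.12 with the index. The count of all genes called moved more. It was 1210 with angiotensin II and 2712 with array weights, and 956 to 1171 with single arrays left out. With torcetrapib it was 229 (117 higher, 112 lower), 120 with arrays centred (79 and 41), 507 quantile normalised again (171 and 336), 50 without the intensity trend, 108 with the mean of probe sets, 136 without _x_at and _s_at probe sets, 1272 with array weights, 145 with only the 2 groups, 76 with the index, and 83 to 917 with single arrays left out, the highest without DMSO replicate 2. Between the treatments it was 2232, 6216 with array weights, 280 with the index and 1351 to 2193 with single arrays left out. The causes were not tested. No paired analysis was possible because the labels give the groups no shared replicate numbers.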

Other observations

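The deposited table held exact ties between arrays. Of the 17 probe sets of the 7 genes, 7 held the same value on at least 2 arrays and 2 held 1 value on all 3 arrays of a group, 233714_at of ARNT with DMSO and 207609_s_at of CYP1A2 with angiotensin II. Ties also joined arrays of different groups, as in the brightest ARNT probe set, where angiotensin II replicate 1 and DMSO replicate 1 were both at 8.05 and torcetrapib replicate 1 and DMSO replicate 2 both at 7.95. Over the main probe sets of all genes, 48.9% held such a tie.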
